A study of Mus musculus with 6 samples.

Results

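The antioxidant genes under the transcription factor NRF2 were followed in cultured B cells targeted for deletion of *Eif3e*. This gene encodes a subunit of the translation initiation complex eIF3. The gene set held 10 of the 24499 genes in the count table. They were NRF2 itself (*Nfe2l2*), its inhibitor *Keap1* and 8 antioxidant targets (*Osgin1*, *Hmox1*, *Gclc*, *Gclm*, *Txnrd1*, *Srxn1*, *Nqo1* and *G6pdx*). The set was chosen by the measured fall of *Osgin1* between the 2 groups compared here, and the other 9 genes were added for their known place in the pathway. The values of *Osgin1* are therefore given as a description, with no test. All 10 genes were in the table and passed the filter on low counts.

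RNA-seq compared YFP+ induced germinal center B cells (iGCBs) in 3 cKO and 3 control libraries, which the paper describes as biological replicates. The cKO mice carried *Eif3e* fl/fl, Cγ1Cre and a *Rosa26-YFP* LSL reporter. The labels call the other group only control; in the study's reporter experiments, control mice carried Cγ1Cre and *Rosa26-YFP* LSL without the floxed *Eif3e* alleles. Cγ1Cre comes on with germline γ1 transcription once B cells are activated, so deletion is limited to cells that have turned on Cre, and the sort for YFP selected such cells. Naïve splenic B cells of cKO and control mice were cultured for 3 days on irradiated 40LB feeder cells with IL-4, and were then sorted for YFP. The 40LB cells are a mouse fibroblast line that supplies CD40 ligand and BAFF. The medium of every culture held the reducing agent β-mercaptoethanol. The age of the mice was not given in the sources used here.

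NRF2 is a basic leucine zipper factor that pairs with small MAF proteins on antioxidant response elements. In resting cells KEAP1 holds NRF2 and hands it to a CUL3 ubiquitin ligase for degradation. Oxidants and electrophiles modify cysteines of KEAP1, and NRF2 then builds up in the nucleus. Its targets make glutathione, reduce thioredoxin, supply NADPH, and handle heme and quinones. NRF2 is controlled mainly through the stability of its protein, which RNA-seq does not measure. In B cells the competing repressors BACH1 and BACH2 bind related DNA elements.

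To show how the members' own start regions relate to these elements, 300-base promoter windows (250 bases before and 50 bases after a start site, RefSeq, GRCm38.p6) were searched on both strands. The antioxidant response element core was written as TGACNNNGC. The windows covered 8 of the 10 members, with no entry for *Hmox1* and *Gclc*. There were 10 such windows, 3 of them for *Txnrd1*. The core was found in 5 of the 10, each of another member, and in 12.4% of all 32851 windows. Each matched stretch is printed 5′ to 3′ on the strand of its gene, with the core in capitals. The 5 stretches are shown because they place the element in the regulator *Nfe2l2* itself and in 4 of its targets.
Nfe2l2, chr2:75704885-75704913, minus strand: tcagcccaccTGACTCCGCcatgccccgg
Gclm, chr3:122245413-122245441, plus strand: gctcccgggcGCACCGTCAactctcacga
Txnrd1, chr10:82859104-82859132, plus strand: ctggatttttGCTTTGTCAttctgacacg
Srxn1, chr2:152105542-152105570, plus strand: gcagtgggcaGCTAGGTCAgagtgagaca
G6pdx, chrX:74428919-74428947, minus strand: aggcgggtcaGCTCAGTCAaagcacacgc

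The cores of *Gclm*, *Txnrd1*, *Srxn1* and *G6pdx* lie on the strand opposite to the gene. Counted from the start sites in the RefSeq table, their first bases stand at -134, -92, 28 and -57, and that of *Nfe2l2* at -240. These start sites need not be those of GENCODE. For *G6pdx* the RefSeq table places the start at 74428880, while the GENCODE transcript matched to its counts starts upstream at 74429194, so the core lies inside that transcript's span. The related AP-1 element TGACTCA, added to the search after the promoters had been read, was found in 2 of the 10 windows, that of *Osgin1* and, at 2 places, that of *Srxn1*, and in 5.2% of all windows. A TGACTCA followed by GC would count as both motifs, and no site printed here did. The AP-1 stretches are printed because the *Osgin1* window held that element and no core.
Osgin1, chr8:119437040-119437066, plus strand: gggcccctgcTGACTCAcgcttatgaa
Srxn1, chr2:152105412-152105438, plus strand: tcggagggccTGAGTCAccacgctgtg
Srxn1, chr2:152105469-152105495, plus strand: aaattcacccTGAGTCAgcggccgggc

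A match says only that these letters occur in the window, and the absence of one says nothing of sites elsewhere.

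Library totals ranged from 39079582 to 45504570 counts. Levels are given as CPM, a gene's counts as a share of the library's total on a common scale, adjusted by edgeR's trimmed mean of M values (TMM). A count of 3 in a library corresponded to 0.0661 to 0.0763 CPM, which covers counting error only. The targeted gene *Eif3e* stood at 173, 150 and 152 CPM in cKO and at 424, 401 and 392 CPM in control libraries, so the labels and the gene went together. Log2 CPM values correlated at 0.977 to 0.982 across genes within a group and at 0.953 to 0.961 between groups. *Xist*, which is transcribed from the inactive X chromosome of female cells, had 53272 to 70912 counts in cKO 2, control 1 and control 2 and at most 16 in the other libraries, while the labels give no sex. A gene was called when its adjusted p (edgeR's quasi-likelihood test, Benjamini-Hochberg over 13296 tested genes) was under 0.05 and its change exceeded 1.5-fold. The background of this contrast was broad, with 10.4% of tested genes higher and 10.6% lower in cKO.

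Of the 9 members other than *Osgin1*, 1 rose (*Gclm*), 2 fell (*Nfe2l2* and *Hmox1*) and 6 passed the call in neither direction. Their median log2 fold change was 0.04, beside -0.004 over all tested genes. Together with *Osgin1*, the cKO and control values did not overlap for *Nfe2l2*, *Keap1*, *Hmox1* and *Gclm*; among all tested genes 58.7% did not overlap, so nothing is read from that count. The members did not move as 1 block, and the description below follows their roles.

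**Figure D1:**
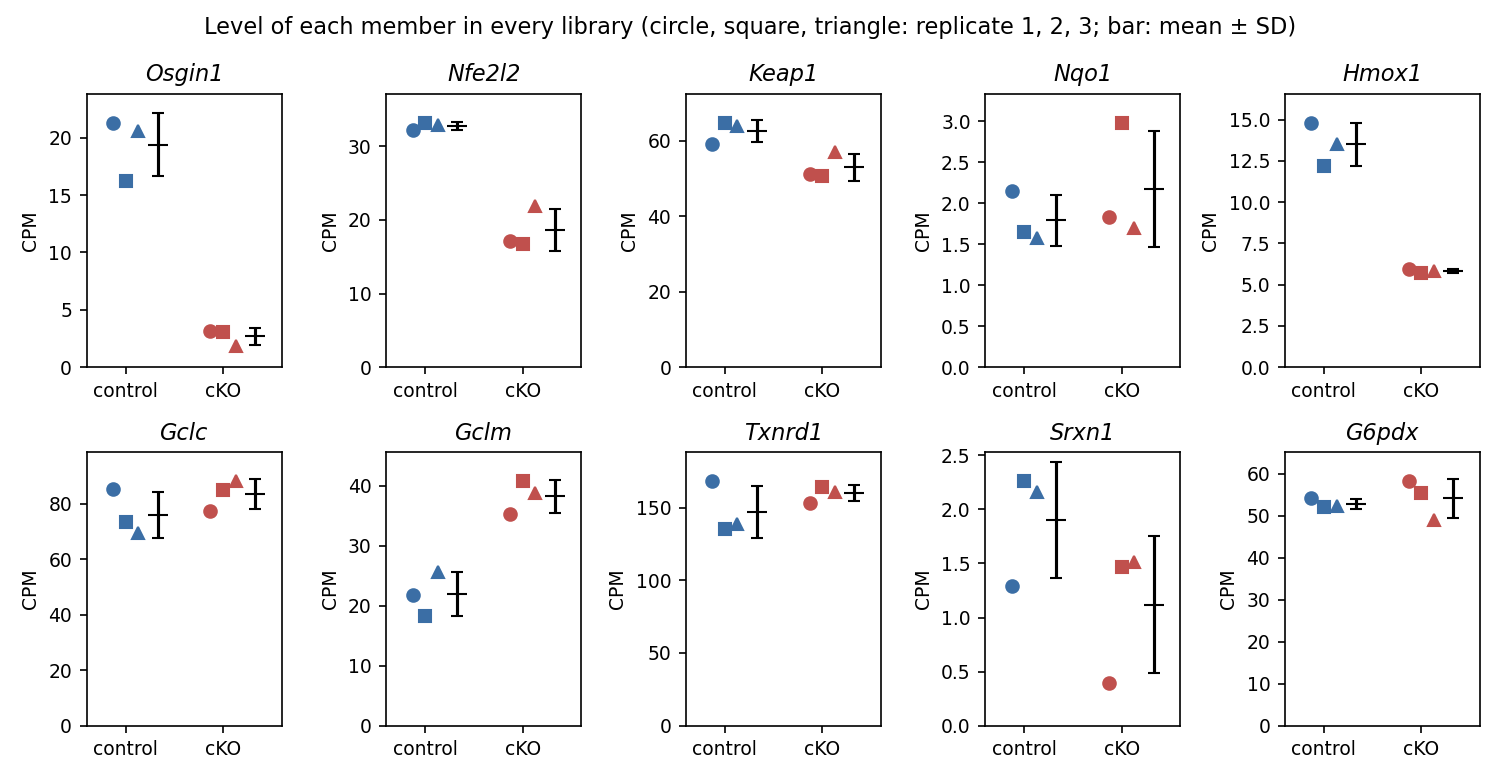
Level of each member in CPM (vertical axes, linear, each from 0) in the 3 control (blue) and 3 cKO (red) libraries, with the mean ± SD in black. Control *Osgin1* sat between 16.2 and 21.3 CPM and cKO *Osgin1* between 1.82 and 3.17 CPM, whereas the groups overlapped for *Nqo1*, *Gclc*, *Txnrd1*, *Srxn1* and *G6pdx*.

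*Osgin1* (chromosome 8, 119434124 to 119446256, plus strand, GRCm38, as for all gene positions here) encodes an NRF2-induced growth inhibitor. Its level was 3.17, 3.09 and 1.82 CPM in cKO 1, 2 and 3 and 21.3, 16.2 and 20.6 CPM in control 1, 2 and 3. Every cKO library lay far below every control library, at 13.9% of the control mean. The log2 fold change was -2.84 (SE 0.209, n = 3 libraries per group). Among the 8514 tested genes with a mean of at least 10 CPM, this was the 4th largest fall, and among all 13296 tested genes it was the 42nd. The genes just before and after it among those of at least 10 CPM were *Jchain*, the joining chain of secreted IgM and IgA, at -4.00, and *Gcsam*, a germinal center signaling adaptor, at -2.75. Its paralog *Osgin2* stood at 19.4, 21.4 and 20 CPM in cKO and at 18.8, 18.8 and 22.4 CPM in control libraries, with a log2 fold change of 0.02 and an edgeR adjusted p of 0.89.

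*Nfe2l2* (chromosome 2, 75675513 to 75704641, minus strand) fell at the RNA level. It measured 17.1, 16.8 and 21.9 CPM in cKO and 32.2, 33.2 and 32.9 CPM in control libraries. The control values were tightly grouped and the highest cKO value, in cKO 3, stayed well below them. The difference was -0.82 on the log2 scale (SE 0.111, edgeR adjusted p 0.00019), a level 56.7% of the control mean.

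*Keap1* (chromosome 9, 21229730 to 21239361, minus strand), which encodes the adaptor that targets NRF2 for degradation, measured 51.1, 50.7 and 56.9 CPM in cKO and 59.1, 64.7 and 63.8 CPM in control libraries. The groups did not overlap but lay close together. The log2 fold change of -0.24 (SE 0.0714) had an edgeR adjusted p of 0.0175 and was under 1.5-fold, so *Keap1* was not called. Its adjusted p rose to 0.061 without cKO 1, 0.0657 without cKO 2 and 0.0581 without control 2.

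*Hmox1* (chromosome 8, 75093621 to 75100589, plus strand) encodes heme oxygenase 1, which opens the heme ring and releases iron. It fell, from 14.8, 12.2 and 13.5 CPM in control 1, 2 and 3 to 5.93, 5.71 and 5.85 CPM in cKO 1, 2 and 3. The 3 cKO libraries were nearly equal, and each was below every control library. This was a log2 fold change of -1.21 (SE 0.124, edgeR adjusted p 3.09e-05), or 2.32-fold lower.

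Glutamate-cysteine ligase, which carries out the first step of glutathione synthesis, has a modifier and a catalytic subunit, and the gene of the modifier subunit was called while that of the catalytic subunit was not. *Gclm* (chromosome 3, 122245557 to 122270732, plus strand) encodes the modifier subunit and rose from 21.7, 18.3 and 25.6 CPM in control libraries to 35.3, 40.7 and 38.7 CPM in cKO libraries. No control library reached the lowest cKO library. On the log2 scale the rise was 0.81 (SE 0.122, edgeR adjusted p 0.000374), or 1.75-fold higher. *Gclc* (chromosome 9, 77754535 to 77794485, plus strand), the catalytic subunit, measured 77.5, 84.9 and 88.1 CPM in cKO and 85.3, 73.6 and 69.3 CPM in control libraries. Control 1 lay between the cKO values, and the groups overlapped. Its log2 fold change was 0.13 with a 95% interval of -0.05 to 0.32 and an edgeR adjusted p of 0.208. The CPM ratio of *Gclc* to *Gclm* was 2.20, 2.09 and 2.28 in cKO 1, 2 and 3, against 3.94, 4.02 and 2.71 in control 1, 2 and 3. The ratios did not overlap, with control 3 the closest to cKO. The mean log2 ratio was 0.68 lower in cKO. A two-sided exact permutation test gave p = 0.1, the smallest that 3 against 3 libraries allow, so this test could not pass 0.05 and decides nothing about the ratio.

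*Txnrd1* (chromosome 10, 82833951 to 82897712, plus strand) encodes cytosolic thioredoxin reductase. It measured 153, 164 and 161 CPM in cKO and 168, 135 and 139 CPM in control libraries. Control 1 was the highest of all and the other controls the lowest. The log2 fold change was 0.12 (95% interval -0.06 to 0.29, edgeR adjusted p 0.265). Without control 1, the edgeR adjusted p was 0.0149 for *Txnrd1* (log2 fold change 0.22) and 0.045 for *Gclc* (0.23), both still under 1.5-fold. *Txnrd1* overlaps the low-level gene *Eid3* over 1305 bases of the same strand, and *Eid3* measured at most 2.36 CPM. *Keap1*, *Gclm*, *Nfe2l2* and *Txnrd1* also overlap predicted genes that have no row in the count table.

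*G6pdx* (chromosome X, 74409483 to 74429194, minus strand) encodes glucose-6-phosphate dehydrogenase, the entry enzyme of the NADPH-producing pentose phosphate pathway. Its level was 58.2, 55.3 and 49.1 CPM in cKO and 54.2, 52.1 and 52.3 CPM in control libraries. The cKO libraries lay on both sides of the controls. Its log2 fold change was 0.04 (95% interval -0.13 to 0.21, edgeR adjusted p 0.728). *G6pdx* overlaps *Ikbkg* on the opposite strand over 19712 bases, and the sources used here do not state whether counting used strand. *Ikbkg* measured 50.2 to 54.7 CPM in cKO and 58.0 to 62.2 CPM in control libraries. The retrogene copy *G6pd2* had 0 counts in all 6 libraries.

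*Nqo1* and *Srxn1*, often read as NRF2 activity markers, had the lowest control levels of the members. *Nqo1* (chromosome 8, 107388225 to 107403206, minus strand) encodes a quinone reductase and measured 1.83, 2.98 and 1.70 CPM in cKO and 2.15, 1.65 and 1.58 CPM in control libraries. Only cKO 2 stood above the rest. The log2 fold change of 0.27 had a 95% interval of -0.41 to 0.95 (edgeR adjusted p 0.496). *Srxn1* (chromosome 2, 152105516 to 152111376, plus strand) encodes sulfiredoxin, which repairs overoxidized peroxiredoxins, and measured 0.397, 1.47 and 1.51 CPM in cKO and 1.29, 2.26 and 2.16 CPM in control libraries. The lowest value, in cKO 1, rested on 18 counts. The log2 fold change of -0.76 had a 95% interval of -1.82 to 0.31 (edgeR adjusted p 0.22), so at this depth both a large fall and a small rise remained within the interval. Leaving out 1 library moved the log2 fold change of *Srxn1* between -0.35 (without cKO 1) and -1.03 (without cKO 3).

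**Figure D2:**
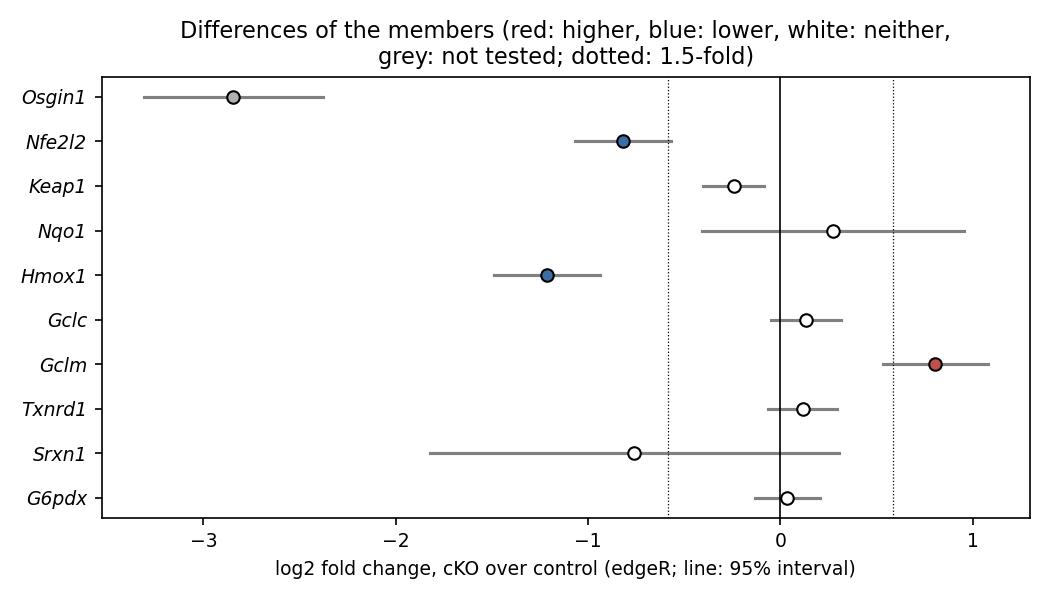
Log2 fold change of each member (horizontal axis, cKO over control, edgeR) with its 95% interval as a line; dotted lines mark 1.5-fold. *Nfe2l2* and *Hmox1* (blue) lay below and *Gclm* (red) above, white members were not called, and *Osgin1* (grey) at -2.84 was not tested because its fall chose the set.

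The members spanned an 88.8-fold range of levels per transcript length in control cells. On this scale, CPM per kilobase of exon averaged over 3 libraries, *Txnrd1* was highest at 60.1 ± 7.90 (SD), followed by *Gclc* at 22.2 ± 2.43, *G6pdx* at 19.9 ± 0.433 and *Keap1* at 19.8 ± 0.940. The ranges of *Gclc*, *G6pdx* and *Keap1* overlapped. *Nfe2l2* came next at 15.3 ± 0.310 CPM per kilobase, then *Osgin1* at 9.66 ± 1.37 and *Hmox1* at 8.62 ± 0.824, whose ranges overlapped. *Gclm* at 3.91 ± 0.654, *Nqo1* at 1.16 ± 0.200 and *Srxn1* at 0.677 ± 0.191 closed the order without overlap between neighbours. In cKO cells, *Osgin1* stood at 1.34 ± 0.38 CPM per kilobase and moved from the 6th to the 9th place, where its range overlapped that of *Nqo1* at 1.40 ± 0.454. *Gclm* moved from the 8th to the 6th place at 6.84 ± 0.490 CPM per kilobase, above *Hmox1* at 3.72 ± 0.0695. *Txnrd1* was highest in both groups, and the order of *Gclc*, *G6pdx* and *Keap1* was not resolved in control cells.

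Alternative transcripts gave a further readout that the choice of the set had not used. *Nfe2l2*, *Keap1* and *Txnrd1* each had several RefSeq transcripts in the deposited transcript table, and the other 7 members had 1. The protein-coding *Nfe2l2* transcript NM_010902 held 81.6%, 82.5% and 74.4% of the gene's counts in cKO and 79.2%, 77.8% and 77.9% in control libraries. The remainder fell to the noncoding NR_132727, which starts further downstream. Counts of both transcripts were lower in every cKO library than in every control library. Each RefSeq transcript was given the start site of its matched GENCODE transcript, and pairs of *Keap1* transcripts shared 1 match. For *Keap1*, transcripts matched to the upstream start took 41.1% to 54.6% of the counts in cKO and 38.5% to 56.4% in control libraries. For *Txnrd1*, NM_001042513 held 81.1% to 88.3% in cKO and 74.6% to 83.9% in control libraries, and NM_015762 held 4.18% to 9.53% and 7.28% to 22.4%. These ranges overlapped between the groups. The *Keap1* transcript NM_001110306 held 5.01% to 8.85% in cKO and 10.6% to 19.9% in control libraries, with no overlap. edgeR's diffSpliceDGE called 3.28% of 2990 genes for a shift in transcript use, and its adjusted p was 0.982 for *Nfe2l2*, 0.54 for *Keap1* and 0.549 for *Txnrd1*. The unadjusted p values of these 3 genes were 0.877, 0.164 and 0.174, and shares estimated from short reads of overlapping transcripts are themselves uncertain.

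**Figure D3:**
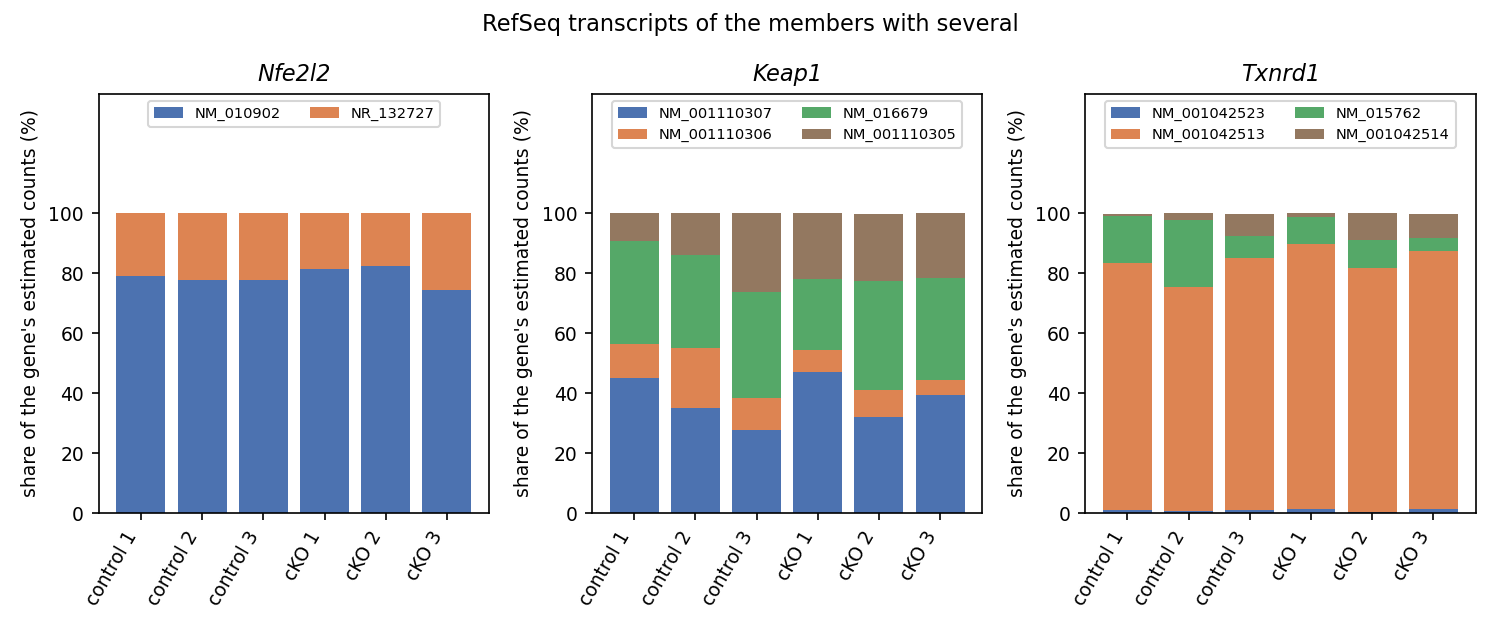
Share of each gene's estimated counts (vertical axis, percent) by RefSeq transcript in the 3 control and 3 cKO libraries for *Nfe2l2*, *Keap1* and *Txnrd1*. The *Nfe2l2* bars are nearly alike, while the *Keap1* and *Txnrd1* bars vary within each group, with NM_001110306 of *Keap1* at 5.01% to 8.85% in cKO and 10.6% to 19.9% in control libraries.

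The wider NRF2 pathway was followed with a list of 108 further genes, of which 97 were tested. In cKO cells 15 of them fell (15.5%, beside 10.6% of all tested genes), 1 rose (1.03%, beside 10.4%) and 81 were not called. Their median log2 fold change was -0.12, beside -0.004 over all genes. By adjusted p alone, 36 were lower (37.1%, beside 24.5% of all tested genes) and 8 higher (8.25%, beside 24.1%). At an unadjusted p under 0.05, 37 were lower and 13 higher, beside 3677 lower and 3614 higher of all 13296 tested genes. Over the whole list DESeq2 called 14 lower and 3 higher, beside 1384 and 1437 of the 16968 genes it fitted. The list was written with results of these libraries known, so these shares and counts describe it and are not independent evidence of its direction.

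Among the regulators and partners of NRF2, 3 of 12 tested genes fell (25%, beside 10.6% of all tested genes) and 0 rose (beside 10.4%) in edgeR. At an unadjusted p under 0.05, 7 were lower and 1 higher, beside 3677 and 3614 of all 13296 tested genes. The median log2 fold change was -0.25. Of these 12, DESeq2 called 2 lower and 0 higher. It also called *Nfe2* higher, a gene that the filter had removed before edgeR, with 10, 8 and 20 counts in cKO and 3, 0 and 0 in control libraries; it is named after its values were seen. *Bach1*, the heme-sensitive repressor of *Hmox1*, measured 20.9, 24.4 and 26.0 CPM in cKO and 53.5, 52.0 and 57.3 CPM in control libraries, a log2 fold change of -1.19 (SE 0.0954, edgeR adjusted p 7.24e-06). Thus the RNA of the repressor *Bach1* and that of its target *Hmox1* were both lower in cKO cells. *Sqstm1*, the autophagy receptor p62 that binds KEAP1, fell from 284 to 323 CPM in control libraries to 169 to 182 CPM in cKO libraries (log2 fold change -0.80, edgeR adjusted p 4.2e-06). The small MAF partner *Maff* fell by 0.59 on the log2 scale (edgeR adjusted p 0.00174), close to the 1.5-fold limit. In DESeq2 its log2 fold change was -0.58 and *Maff* was no longer called. *Cul3*, the scaffold of the ligase that KEAP1 serves, was named after its values were seen as the single regulator higher by adjusted p alone. It measured 333, 340 and 308 CPM in cKO and 241, 220 and 251 CPM in control libraries (log2 fold change 0.46, edgeR adjusted p 0.000173), which is under 1.5-fold. The regulators lower by adjusted p alone and under 1.5-fold, likewise named after their values were seen, were the repressor *Bach2* (log2 fold change -0.42, edgeR adjusted p 0.00321), the small MAF *Mafg* (-0.37, edgeR adjusted p 0.0084) and *Nfe2l1*, the NRF2 relative NRF1 (-0.18, edgeR adjusted p 0.0195).

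Among the heme and iron genes, *Blvrb* and both ferritin genes fell. Of 10 tested, 3 fell (30%, beside 10.6% of all tested genes) and 0 rose (beside 10.4%) in edgeR, with a median log2 fold change of -0.29. At an unadjusted p under 0.05, 5 were lower and 1 higher, beside 3677 and 3614 of all 13296 tested genes. DESeq2 called 3 lower and 0 higher, beside 1384 and 1437 of the 16968 genes it fitted. *Blvrb*, which reduces biliverdin, a product of heme breakdown, measured 31.3, 26.7 and 28.9 CPM in cKO and 67.4, 67.4 and 59.9 CPM in control libraries (log2 fold change -1.16, SE 0.0854, edgeR adjusted p 4.4e-06). The ferritin light chain *Ftl1*, which stores iron together with the heavy chain, measured 534, 521 and 508 CPM in cKO and 1020, 936 and 973 CPM in control libraries (log2 fold change -0.91, edgeR adjusted p 9.97e-07). The heavy chain *Fth1* fell from 672 to 723 CPM in control libraries to 426 to 462 CPM in cKO libraries (log2 fold change -0.66, edgeR adjusted p 5.98e-06). Both ferritin genes have processed pseudogenes that can share their reads, so their counts are uncertain to that extent.

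In the glutathione list, 4 of 34 tested genes fell (11.8%, beside 10.6% of all tested genes) and 0 rose (beside 10.4%) in edgeR. At an unadjusted p under 0.05, 9 were lower and 5 higher, beside 3677 and 3614 of all 13296 tested genes. Of the 34, 4 were called lower and 0 higher in DESeq2. DESeq2 called *Gpx8* higher, also removed by the filter and named after its values were seen, with 11, 12 and 8 counts in cKO and 0 in every control library. The median log2 fold change was -0.04. *Chac1*, which breaks down glutathione, stood at 1.43, 1.24 and 0.707 CPM in cKO and at 9.97, 8.62 and 11.1 CPM in control libraries (log2 fold change -3.13, SE 0.249, edgeR adjusted p 7.01e-06). Glutaredoxin *Glrx* fell by 1.04 (edgeR adjusted p 0.000347) and the microsomal glutathione transferase *Mgst2* by 0.96 (edgeR adjusted p 0.00422), both on the log2 scale. The fourth, *Gsta1*, named after its values were seen, averaged 0.765 CPM. It has close paralogs, and its log2 fold change was -1.54 (edgeR adjusted p 0.0386).

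The thioredoxin and peroxiredoxin list held the only rise called by edgeR. *Txnrd3*, a thioredoxin reductase with an added glutaredoxin domain, measured 12.3, 11 and 9.12 CPM in cKO and 4.68, 5.52 and 7.50 CPM in control libraries (log2 fold change 0.87, SE 0.191, edgeR adjusted p 0.00354). Of the 14 tested genes, 2 fell (14.3%, beside 10.6% of all tested genes) and 1 rose (7.14%, beside 10.4%), with a median log2 fold change of -0.18. *Prdx5*, a peroxiredoxin of mitochondria, peroxisomes and cytosol, measured 40.7 to 43.7 CPM in cKO and 74.2 to 79.5 CPM in control libraries (log2 fold change -0.84, edgeR adjusted p 5.26e-06). The sestrin *Sesn1*, a stress-induced inhibitor of mTORC1 signaling, measured 23.7 to 29.2 CPM and 50.9 to 56.7 CPM (log2 fold change -1.04, edgeR adjusted p 1.45e-05).

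Catalase (*Cat*), which breaks down hydrogen peroxide, was the single called gene of 5 tested for superoxide and peroxide removal. It measured 72.8, 62.8 and 65.9 CPM in cKO and 129, 117 and 117 CPM in control libraries (log2 fold change -0.85, edgeR adjusted p 8.42e-06). At an unadjusted p under 0.05, 2 of the 5 were lower and 0 higher, beside 3677 and 3614 of all 13296 tested genes. DESeq2 called 1 of the list lower and 0 higher. The list's share called lower was 20%, beside 10.6% of all tested genes, and its median log2 fold change -0.07. Of 12 tested quinone, carbonyl and xenobiotic enzymes, 2 fell (16.7%, beside 10.6% of all tested genes) and 0 rose in edgeR, with a median log2 fold change of 0.04. At an unadjusted p under 0.05, 4 were lower and 3 higher, beside 3677 and 3614 of all 13296 tested genes. DESeq2 called 2 lower and 0 higher. The called genes were *Ptgr1*, a prostaglandin reductase (log2 fold change -1.04, edgeR adjusted p 0.00282), and *Cbr1*, a carbonyl reductase (-0.71, edgeR adjusted p 0.003). None of the 9 tested NADPH supply genes was called by edgeR or DESeq2. At an unadjusted p under 0.05 in edgeR, 4 were lower and 0 higher, beside 3677 and 3614 of all 13296 tested genes. Their median log2 fold change was -0.23.

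**Figure D4:**
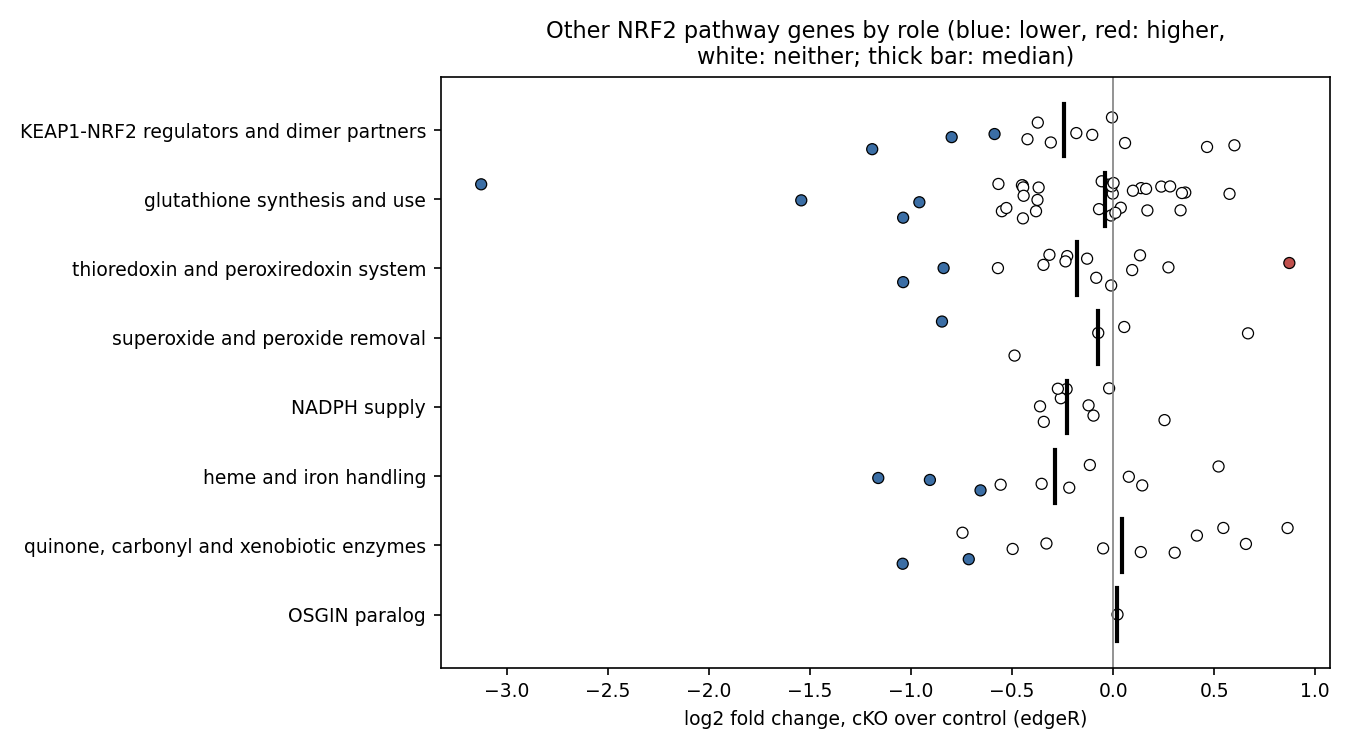
Log2 fold change (horizontal axis, cKO over control, edgeR) of the 97 tested pathway genes, 1 point per gene, by role; blue points were called lower, red higher and white neither, and the thick bars are medians. The single red point is *Txnrd3* at 0.87 and the leftmost blue point *Chac1* at -3.13; the vertical scatter within a row has no meaning.

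*Osgin1* was also compared with all other genes by its profile. Likeness was the root-mean-square difference between log2 CPM values, each centred on its gene's mean over the 6 libraries, among 11405 genes tested with a mean of at least 1 CPM. The 5 most alike were *Slc6a9*, a glycine transporter (0.126), *Jdp2*, a basic leucine zipper repressor of AP-1 (0.138), *Chac1* (0.163), *Asns*, asparagine synthetase (0.229), and *Tubg2*, a gamma-tubulin (0.314). *Slc6a9* stood at 2.45, 3.02 and 1.46 CPM in cKO and at 15.9, 13.9 and 17.6 CPM in control libraries. *Asns* was more abundant and stood at 19.4, 22.8 and 15.6 CPM in cKO and at 112, 108 and 116 CPM in control libraries. Like *Osgin1*, *Slc6a9*, *Jdp2*, *Chac1*, *Asns* and *Tubg2* were lowest in cKO 3. Of these 5 genes, *Chac1* was on the pathway list and none was a member. The likeness rests mainly on the difference between the groups and is given as a description.

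Markers of cell types moved beside these results, and their part in them was not tested. In bulk samples, fewer cells of a type and less RNA per cell cannot be told apart. The 8 B cell markers summed to 11000 to 11400 CPM in cKO and 14200 to 15100 CPM in control libraries, and all 8 were detected, with 1 called lower and 0 higher. The 6 germinal center markers summed to 267 to 280 and 336 to 412 CPM (3 lower, 0 higher), and the 6 plasma cell markers to 960 to 1130 and 1330 to 1390 CPM (4 lower, 1 higher). The 20 fibroblast markers, for feeder cells, summed to 104 to 119 CPM in cKO and 67.5 to 134 CPM in control libraries, with *Lum* and *Postn* at 0 counts throughout (2 higher, 1 lower). Macrophage markers summed to 12.1 to 13.6 and 9.90 to 12.7 CPM (1 of 3 tested higher). T cell markers, with *Cd3e* at 0 counts, summed to 23.3 to 25.7 and 36.5 to 39.7 CPM, nearly all of it *Lck* (lower).

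The directions of the moved members were the same in libraries with and without *Xist*. For *Osgin1*, the log2 difference of cKO 2 from controls 1 and 2 was -2.57, and that of cKO 1 and 3 from control 3 was -3.07. The corresponding differences were -0.96 and -0.76 for *Nfe2l2*, -1.23 and -1.19 for *Hmox1*, and 1.03 and 0.53 for *Gclm*. *Srxn1* differed most between these strata, at -0.21 and -1.41. Each stratum had a group with 1 library, so these values were not tested.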

How the data were processed

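Per the labels and the study's methods, polyA RNA was sequenced, reads were aligned with HISAT2 (mm10 per the submitters' processing notes) and quantified with StringTie. The authors deposited estimated counts for genes and for RefSeq transcripts, the output of StringTie's prepDE script, as whole numbers without normalization. Tool versions, annotation and read length setting are not given in the sources used here, so 1 count may not be 1 fragment. The gene table was fitted with edgeR 4.0.16 under R 4.3.3 (filterByExpr with a minimum count of 10, TMM, glmQLFit, glmQLFTest, no covariate); DESeq2 1.42.0 was an alternative. SE was the absolute log2 fold change divided by the square root of F. Transcripts were assigned to genes by RefSeq (34674 of 36026 matched), and exon lengths and gene positions were from GENCODE M21 on GRCm38.

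The members and all lists were chosen with earlier results of these data known. Named genes were the members, called regulators, in each other list at most the 4 largest called changes (mean CPM of 1 or more), and the 5 genes most like *Osgin1*. Both tools were checked on simulated counts: when 200 of 13296 genes of this contrast were changed by 2-fold, edgeR recovered 147 of the 195 it tested and called 9 unchanged ones, and DESeq2 recovered 152 of 200 and called 23. Recovery was counted by adjusted p under 0.05 and direction, without the 1.5-fold limit. Far fewer genes were changed there than were called in this contrast. For transcript use over 2990 genes, 0.75 of the counts of 1 transcript was moved to another in 200 well-counted genes. diffSpliceDGE recovered 200 of these 200 and called 37 unchanged genes, more than it should. Smaller shifts were not simulated, so this recovery says nothing of them. Alternatives were other scaling, DESeq2, other filters, counts divided by 4, the replicate number as a block, *Xist* as a covariate, and each library left out.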

Additional observations from a re-analysis of the deposited data

How the results depend on the processing

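The calls of *Nfe2l2*, *Hmox1* and *Gclm* were kept, with their directions, in all 14 alternative fits. Log2 fold changes ranged from -0.95 to -0.75 for *Nfe2l2*, from -1.29 to -1.14 for *Hmox1*, from 0.69 to 0.94 for *Gclm* and, untested, from -2.98 to -2.63 for *Osgin1*. With 1 library left out, *G6pdx* ranged from -0.0183 to 0.10, turning without cKO 1, and *Nqo1* from -0.025 to 0.42, turning without cKO 2, while *Srxn1* ranged from -1.03 to -0.35. The count of other pathway genes higher in cKO was 3 in DESeq2, 2 with no filter on low counts, 8 by adjusted p alone, and 1 to 3 with 1 library left out, being 3 without control 1 or control 3, 2 without cKO 2, cKO 3 or control 2. The count of lower ones was 36 by adjusted p alone, and among pathway genes tested in edgeR DESeq2 changed 1 call, that of *Maff*; the 2 further higher calls in DESeq2, *Nfe2* and *Gpx8*, were of genes that edgeR's filter had removed. Transcript use of *Nfe2l2*, *Keap1* and *Txnrd1* passed an adjusted p of 0.05 in 0 of its 10 alternatives, 1 library left out among them. The replicate numbers in the titles were not taken as pairs in the main fit, and whether they mark paired cultures was not settled. For its iGCB culture assays the paper used paired t tests. Deviations from the group means correlated at 0.00851, 0.0839 and 0.133 for libraries of equal number. cKO 1 and cKO 2 correlated more with a control of another number, and cKO 3 most with control 3. Correlations this small, from 3 libraries per group, cannot decide whether the cultures were paired. With the replicate number as a block, 1 member other than *Osgin1* was higher and 2 were lower, as without the block. *Nqo1* and *Srxn1*, with 18 to 134 counts per library, limit what depth can show.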
